A study of Mus musculus with 8 samples.

Results

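The genes described here are 59 genes of the G2/M phase and mitosis, read on oligonucleotide arrays from mouse spleen CD8+ T cells that were wild type (C57BL/6) or Elf4-/- KO and were either left untreated or activated. They were listed by name from their known roles, with earlier results of these data already known. A gene was taken as measured when the array's annotation gave it a probe set of its own, which held for 58 of the 59 among 18194 named genes, with 139 probe sets in all. Ccnb1, the mitotic cyclin B1, was not analysed here. Of the 58 genes, 42 had over 1 probe set, and each gene is described by its brightest one, chosen by mean intensity over all arrays.

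The arrays fell into 4 groups of 2: wild-type naive, knockout naive, wild-type activated and knockout activated cells. Naive here means untreated, and activated means cultured for 3.5 days on plates coated with anti-CD3 with anti-CD28 in the medium. Elf4 encodes a transcription factor of the ETS family, and the series' title places the comparison in a study of how that factor controls proliferation of these cells. The sources used here do not say how the Elf4 allele was made, nor that the 2 arrays of a group came from separate mice or cultures. The p-values therefore set a difference only against the spread between arrays of a group, estimated over all 4 groups, and that spread may be technical. Both wild-type naive arrays carry the same array-file name in their labels, while each other array has its own. The values of these 2 arrays differ: 0 of 45101 probe sets had the same intensity on both, and the median absolute difference between them was 0.43 on the log2(intensity + 16) scale, against 0.31 to 0.37 within the other groups.

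A resting T cell stands outside the division cycle and holds the messages for mitosis at a low level. Signals through the antigen receptor and CD28 bring it into the cycle, and mitotic genes are then transcribed in a wave that follows DNA replication. Cdk1 with its cyclins starts mitosis, condensin compacts the chromosomes, kinetochores tie them to spindle microtubules under the watch of the spindle checkpoint, and the anaphase-promoting complex then releases cohesion so that the chromatids part and the cell cleaves. In quiescent cells many of these genes are held down by the DREAM complex, which, with its MuvB core, binds a short promoter element known as the CHR, while the activator NF-Y binds CCAAT boxes nearby.

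The promoters of the 5 genes with the smallest p in the naive comparison are shown because their level differed most clearly from the spread between arrays, and because both elements named above can be seen in them. Each line runs from 250 bases before to 50 bases after the annotated start, 5′ to 3′ on the gene's own strand, from RefSeq on GRCm38.p6. Capitals mark CCAAT on either strand (CCAAT or ATTGG) and the CHR letters TTTGAA on either strand (TTTGAA or TTCAAA) or TTCGAA, which reads the same on both.
Mki67: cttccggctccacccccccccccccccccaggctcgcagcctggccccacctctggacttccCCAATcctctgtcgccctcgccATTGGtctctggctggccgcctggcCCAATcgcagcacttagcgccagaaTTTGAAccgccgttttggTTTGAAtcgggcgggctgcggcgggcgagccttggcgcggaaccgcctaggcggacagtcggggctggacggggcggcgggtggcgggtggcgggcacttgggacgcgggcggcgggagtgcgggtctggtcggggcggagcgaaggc
Sgo1: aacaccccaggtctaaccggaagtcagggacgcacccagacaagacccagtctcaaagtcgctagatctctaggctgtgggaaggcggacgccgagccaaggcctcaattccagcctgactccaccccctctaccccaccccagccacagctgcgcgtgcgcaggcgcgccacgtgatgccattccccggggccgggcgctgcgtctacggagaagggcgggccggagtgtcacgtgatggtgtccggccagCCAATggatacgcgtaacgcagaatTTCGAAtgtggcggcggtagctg
Prc1: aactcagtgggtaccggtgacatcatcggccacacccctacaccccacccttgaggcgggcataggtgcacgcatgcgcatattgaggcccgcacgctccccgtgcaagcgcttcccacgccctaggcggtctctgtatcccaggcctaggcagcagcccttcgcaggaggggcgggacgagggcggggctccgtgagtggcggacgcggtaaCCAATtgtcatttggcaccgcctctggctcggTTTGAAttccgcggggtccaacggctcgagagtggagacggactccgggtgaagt
Bub1b: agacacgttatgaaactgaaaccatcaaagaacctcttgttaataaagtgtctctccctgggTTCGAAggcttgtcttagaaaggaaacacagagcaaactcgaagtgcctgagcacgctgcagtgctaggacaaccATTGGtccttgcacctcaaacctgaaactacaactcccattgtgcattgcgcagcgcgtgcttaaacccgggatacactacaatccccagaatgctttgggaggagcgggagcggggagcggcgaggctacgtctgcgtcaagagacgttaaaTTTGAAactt
Top2a: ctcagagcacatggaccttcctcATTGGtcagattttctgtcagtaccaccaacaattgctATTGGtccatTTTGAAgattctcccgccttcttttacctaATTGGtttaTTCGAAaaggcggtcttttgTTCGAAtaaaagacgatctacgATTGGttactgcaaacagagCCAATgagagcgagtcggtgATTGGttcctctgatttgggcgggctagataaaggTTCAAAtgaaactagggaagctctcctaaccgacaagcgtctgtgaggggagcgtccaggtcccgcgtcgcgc

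The Mki67 window is chr7:135716330-135716629 on the minus strand and that of Sgo1 is chr17:53689266-53689565 on the minus strand. Prc1 lies at chr7:80294201-80294500 and Bub1b at chr2:118597961-118598260, both on the plus strand, and Top2a lies at chr11:99024140-99024439 on the minus strand. The table of promoters held 50 of the 59 genes, and 35 of these 50 (70%) had a CCAAT box in the window, against 37.9% of all 27025 promoters of the same length. TTTGAA or TTCGAA stood in 38 of the 50 (76%), against 19.4% of all promoters, and both kinds of element stood in 64%, against 7.7%. Among the 8 genes that were higher in naive knockout cells, described below by role, 6 promoters held both. The window of Plk4 held neither and that of Kif2c held TTTGAA without CCAAT. A match of letters is a description and not a bound site.

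Some facts of the arrays bear on every comparison. Elf4 itself was dim, at 76.2 to 199 on its brighter probe set over the 8 arrays, and did not pass the test between genotypes in naive or activated cells (limma adjusted p = 0.892 and 0.814). The sources used here do not place its probes relative to the disruption, so this reading checks no label, and knockout means labelled as such. Naive and activated arrays carried different array-file series in their labels. They also differed in the X-inactivation transcript Xist (60.3 to 172 against 7703 to 10011), in the Y-linked gene Eif2s3y (2537 to 5146 against 2.93 to 44), in a spiked bacterial control and in the ratio of 3′ to 5′ signal of Actb (1.96 to 2.5 against 5.9 to 11.1). Activation and these differences cannot be told apart in these data. Between genotypes, the Actb ratio of the activated arrays was 5.98 and 5.9 in wild-type against 7.44 and 11.1 in knockout cells. The T cell genes that define the sample were bright in both naive groups and 0 of 10 measured passed between them (limma, 3 at an unadjusted p under 0.05), while Cd4 was at or under 43.1 on all arrays. The median intensity of an array was 63.9 to 86, and 15 of the 58 mitotic genes lay under it on both wild-type naive arrays, against 3 on both knockout naive arrays.

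**Figure D1:**
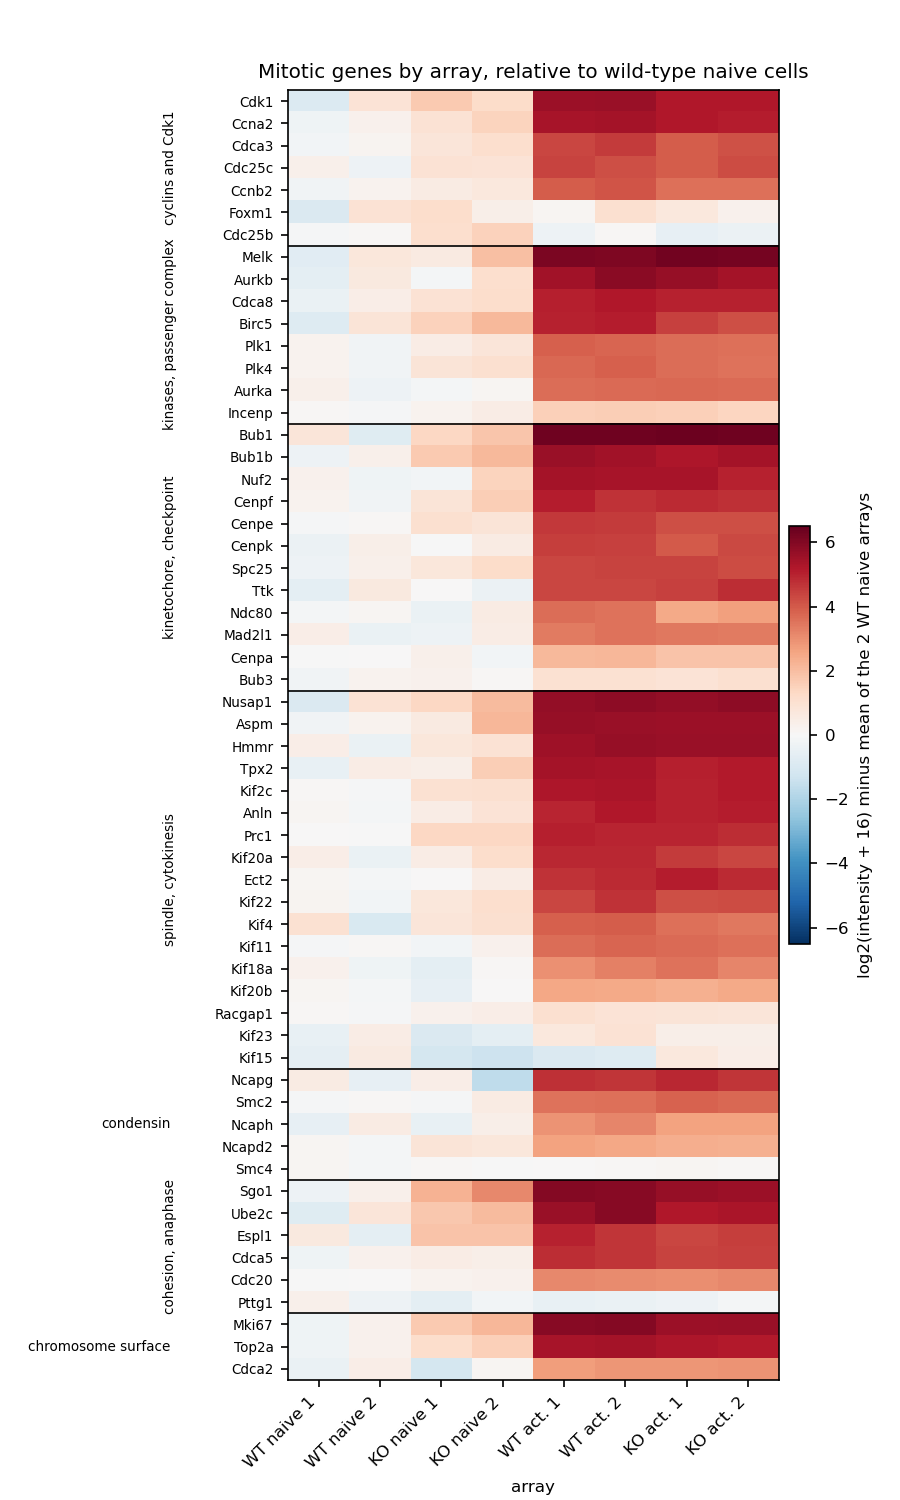
Mitotic genes by array, grouped by role. Colour gives log2(intensity + 16) minus the mean of the 2 wild-type naive (WT) arrays for each of 58 genes. The 4 activated (act.) arrays are red in nearly every row, dark in most and pale in some, such as Bub3, Racgap1 and Kif23. The 2 knockout (KO) naive arrays are pale red in most rows, and Cdc25b, Foxm1, Smc4, Pttg1 and Kif15 do not follow the common pattern.

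In naive cells, 8 of the 57 tested mitotic genes were higher in the knockout and 0 were lower, where 0.477% of all 12797 named genes tested were called higher and 0.359% lower. The list was drawn up with earlier results of these data known, so these shares are a description. The 8 were Mki67, Sgo1, Prc1, Bub1b, Top2a, Cdc25b, Kif2c and Plk4, and for all of them but Sgo1 the mean intensity was 1.92-fold (Plk4) to 4.41-fold (Bub1b) that of the wild type. Both wild-type values of Bub1b and of Sgo1 lay under the medians of their arrays (73.4 and 86), where a ratio is not well measured. A difference above 0 was measured for 49 of the 58 genes, with a median of 0.76 on the log2(intensity + 16) scale, against 0.02 over all named genes. Both knockout arrays lay above both wild-type arrays for 33 genes and below them for 2, where 20.3% of all genes tested gave the first pattern and 19.4% the second. The test was limma's, fitted on all 27389 probe sets that passed a filter on low values, with Benjamini-Hochberg adjustment and a threshold of 0.05. In bulk RNA, fewer cells holding a message and less of it per cell cannot be told apart.

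**Figure D2:**
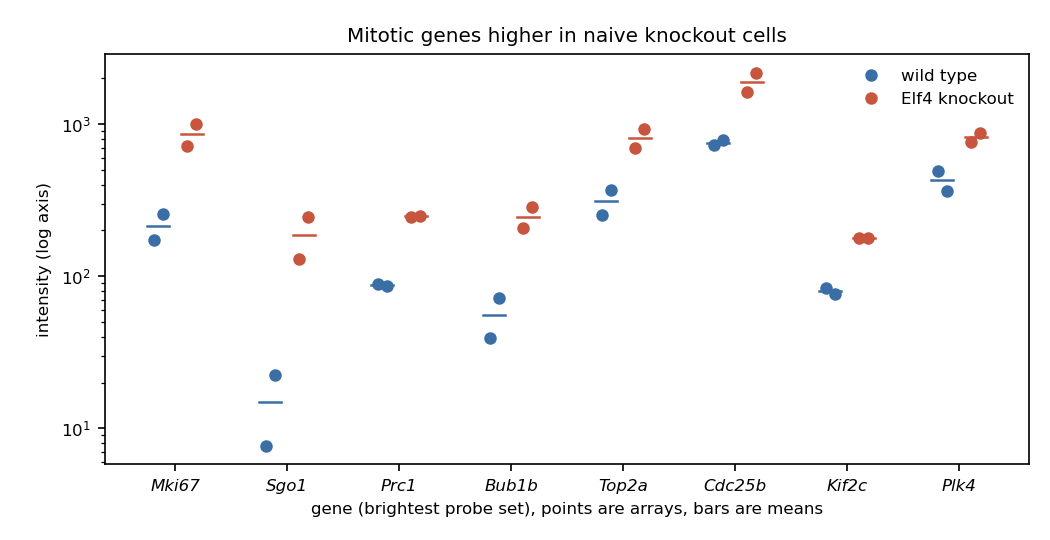
Intensity (log axis) of the 8 mitotic genes that passed the test in naive cells. Points are single arrays, 2 per genotype, and bars are group means. In each gene both knockout arrays lie above both wild-type arrays, with Sgo1 the farthest apart (7.68 and 22.3 against 130 and 245).

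Of the genes of the chromosome surface and its topology, 2 of 3 passed. Mki67 encodes Ki-67, the protein that coats mitotic chromosomes and serves as the common marker of cycling cells. It read 174 and 255 on the wild-type naive arrays and 714 and 1006 on the knockout naive arrays. Both knockout values were over both wild-type values, a difference of 1.93 on the log2 scale (SE 0.20, adjusted p = 0.00424). Top2a, the topoisomerase that untangles sister DNA before segregation, read 251 and 370 in wild-type against 700 and 922 in knockout cells (log2 1.35, SE 0.19, adjusted p = 0.017). A dimmer Top2a probe set gave −0.71 and did not pass, so the call rests on the brighter one. Cdca2, which brings a phosphatase to anaphase chromosomes, gave −0.52 and did not pass (adjusted p = 0.662), with overlapping arrays.

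Among 6 genes of cohesion and anaphase, Sgo1 passed. It encodes shugoshin, which shields centromeric cohesion until anaphase, and it read 7.68 and 22.3 in wild-type against 130 and 245 in knockout naive cells (log2 2.69, SE 0.33, adjusted p = 0.00815). Its wild-type values lay under the array median, so the ratio depends on values at the dim end of the scale. A second Sgo1 probe set stayed at 3.67 to 10.2 on the naive arrays and gave 0.27. Ube2c, the ubiquitin-conjugating enzyme of the anaphase-promoting complex, read 14.4 and 73.7 against 161 and 201. Espl1, the protease separase that cuts cohesin, read 59.7 and 14.6 against 160 and 159. In both, the knockout arrays lay above the wild-type arrays, and neither passed (log2 1.91 and 1.87, adjusted p = 0.0786 and 0.0672). Cdca5, which encodes the cohesin protector sororin, gave 0.43, the complex's activator Cdc20 gave 0.25, and Pttg1, the separase inhibitor securin, gave −0.39.

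Of 12 kinetochore and spindle checkpoint genes, 11 were above 0 and Bub1b passed. Bub1b encodes BubR1, the checkpoint protein that holds back the anaphase-promoting complex, and it read 39.2 and 72.2 in wild-type against 207 and 284 in knockout naive cells. The difference was 1.89 (SE 0.26, adjusted p = 0.0143), and a second, dimmer Bub1b probe set also passed (log2 1.72, adjusted p = 0.0358). The last of the 3 tested Bub1b probe sets did not pass, and Bub1b was not called with the mean over a gene's probe sets. Its partner kinase Bub1 read 44.4 and 3.68 against 71.3 and 104 and did not pass (log2 1.57, adjusted p = 0.175). Cenpf and Cenpe, proteins of the outer kinetochore, gave 1.23 and 0.93, and Spc25, a subunit of the NDC80 complex that grips microtubules, gave 0.95 (adjusted p = 0.105, 0.123 and 0.162). Of the other subunits of that complex, Nuf2 gave 0.64 and Ndc80 0.06. The checkpoint genes Bub3 and Mad2l1 had overlapping arrays, Bub3 at 7447 and 10370 against 10529 and 9315, and gave 0.17 and 0.08. The median of the 12 was 0.44.

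Spindle and cytokinesis genes gave 2 calls among 16 tested, with a median of 0.81 over 17. Prc1 bundles the microtubules of the central spindle where the cell will cleave, and its arrays lay close together within each genotype, at 88.5 and 86.5 in wild-type against 246 and 248 in knockout naive cells (log2 1.34, SE 0.18, adjusted p = 0.0143). Kif2c, a kinesin that takes microtubules apart at centromeres, read 84.1 and 76.6 against 178 and 179 (log2 1.01, SE 0.19, adjusted p = 0.0446). A dimmer Kif2c probe set gave −0.30, and the 2 others gave 0.14 and 0.20. Kif22, a kinesin on chromosome arms, read 916 and 707 against 1355 and 1734 and came next (log2 0.92, adjusted p = 0.0628). Nusap1, Aspm and Tpx2, which stabilise or focus spindle microtubules, gave 1.70, 1.39 and 0.99 with wide spread between arrays, and 0 of these 3 passed (unadjusted p = 0.00346, 0.00815 and 0.0305). Below 0 were Kif23, the kinesin of the cytokinetic midzone (1413 and 2779 against 1044 and 1285, log2 −0.77, adjusted p = 0.279), Kif18a (−0.28), Kif20b (−0.26) and Kif15 (−1.26). Kif15 read 7 to 79.3 over all arrays and was left untested by the filter.

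Mitotic kinases and the chromosomal passenger complex gave 1 call of 8. Plk4, the kinase that starts centriole duplication, read 489 and 363 in wild-type against 764 and 869 in knockout naive cells (log2 0.93, SE 0.17, adjusted p = 0.0493). Its 2 dimmer probe sets gave −0.05 and −0.92, so the gene's direction depends on which probe set is read. Birc5, which encodes the passenger subunit survivin, read 30.7 and 131 against 214 and 346 (log2 1.80, adjusted p = 0.126). The passenger subunit Cdca8, or borealin, read 248 and 471 against 676 and 762 (log2 1.03, adjusted p = 0.106), and a dimmer Cdca8 probe set passed (log2 1.77, adjusted p = 0.0251). For the passenger kinase Aurkb, too, a dimmer probe set passed (29.1 and 22.6 against 85.2 and 107, log2 1.42, adjusted p = 0.0419), whereas the brightest gave 0.50. Both wild-type values of that dimmer Aurkb probe set lay under the medians of their arrays (73.4 and 86). Aurka, the kinase of the spindle poles, gave 0.01, and Plk1, the polo-like kinase of mitotic entry, gave 0.64.

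All 7 measured genes of the cyclin and Cdk1 group were above 0 in naive knockout cells, with a median of 0.94, and Cdc25b passed. Cdc25b encodes a phosphatase that switches Cdk1 on, and it read 724 and 783 in wild-type against 1618 and 2179 in knockout naive cells (log2 1.30, SE 0.21, adjusted p = 0.0294). Ccna2, or cyclin A2, read 88.5 and 141 against 232 and 330, with no overlap (log2 1.19, adjusted p = 0.06). Cdk1 itself read 33.5 and 159 against 282 and 198 (log2 1.44, adjusted p = 0.225), and Ccnb2, a B-type cyclin, read 144 and 208 against 262 and 291 (log2 0.63, adjusted p = 0.257). Cdca3, a trigger of mitotic entry, gave 0.94 and the phosphatase Cdc25c 0.93.

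The 5 condensin genes had a median of 0.01, and 0 of 5 passed (limma, 1 of 5 at an unadjusted p under 0.05). Ncapd2, a non-SMC subunit of condensin I, read 624 and 528 in wild-type against 1021 and 957 in knockout naive cells, with no overlap (log2 0.77, adjusted p = 0.071). The ATPase subunits Smc4 and Smc2 gave 0.01 and 0.24, and Ncaph, the kleisin of condensin I, gave −0.05. Ncapg, another non-SMC subunit, split by probe set. Its brightest one gave −0.62 (95 and 37.7 against 86.5 and 8.69), and the other read 5.45 and 4.45 against 49.4 and 107 and passed (log2 2.10, adjusted p = 0.024). Of these, both wild-type values and the knockout value of 49.4 lay under the medians of their arrays (73.4, 86 and 75.3), where a ratio is not well measured.

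Read over all probe sets, 12 of 123 tested passed as higher in naive knockout cells, in 11 genes, where 0.314% of all probe sets did. They were those of the 8 genes above, the second Bub1b probe set, and those of Aurkb, Cdca8 and Ncapg. Without knockout naive replicate 2 the count over brightest probe sets went from 8 to 1, leaving Mki67, and without any single activated array it went to 2, Mki67 and Sgo1. Without wild-type naive replicate 1 the median difference over the members was 0.56, and Kif23 gave −1.25. Without wild-type naive replicate 2 the median was 0.64. The call of Mki67 was lost with a variance model without an intensity trend and with the 4 naive arrays fitted alone, where 0 of 57 passed. The median difference without knockout naive replicate 2 was 0.53.

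**Figure D3:**
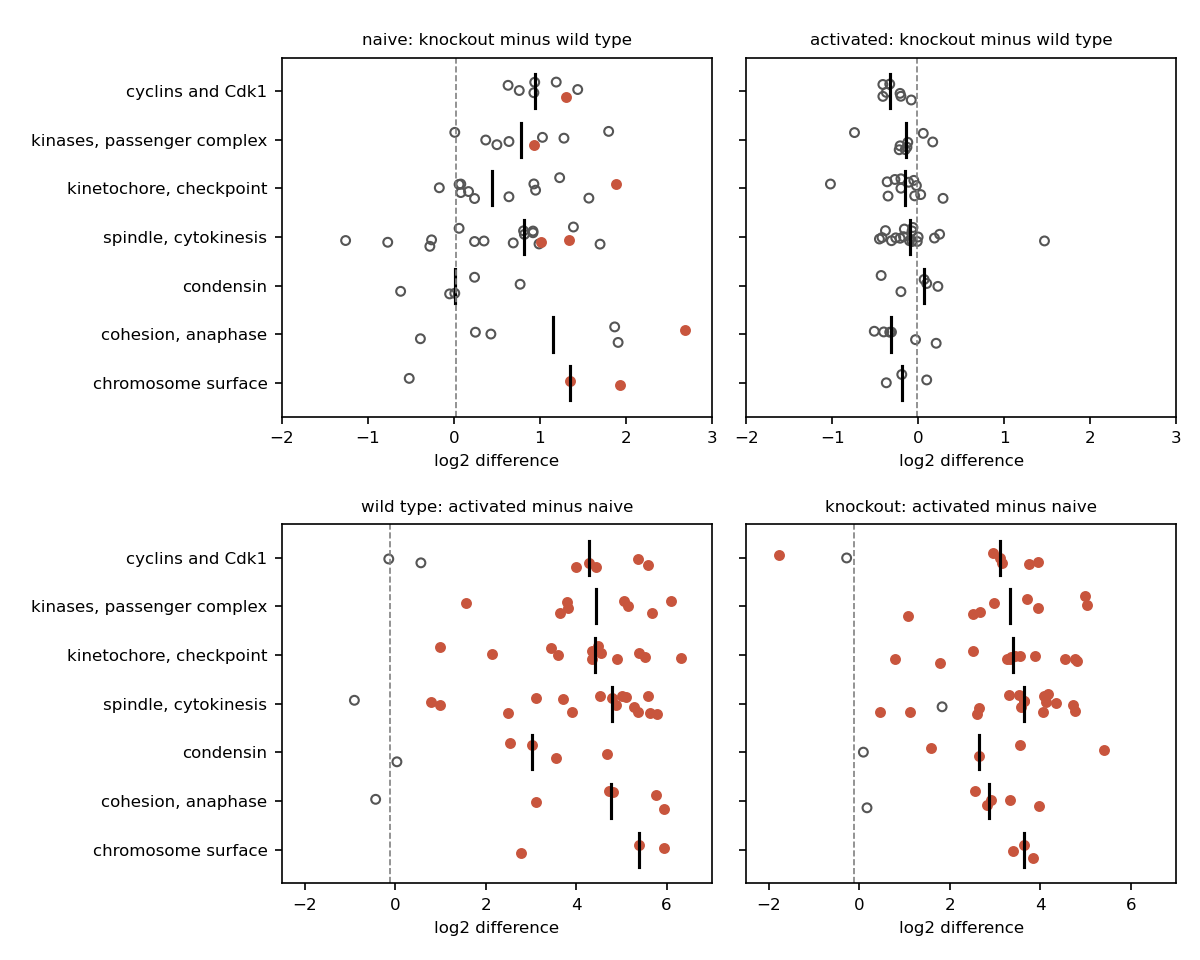
Differences on the log2(intensity + 16) scale for 58 mitotic genes by role, in 4 comparisons. Filled points passed the adjusted threshold of 0.05, black bars are role medians and the dashed line is the median over all named genes. In naive cells the 8 calls lie to the right of the line and condensin lies around it. In activated cells 0 points are filled in the knockout comparison, and after activation most points lie between 1 and 6.

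Knockout naive replicate 2 stood above replicate 1 in 45 of the 58 mitotic genes, with a median ratio of 1.3, and in the 8 called genes this ratio was 1 to 1.89. Granulocyte markers, taken as a sum, moved with the same arrays by more. Their summed intensity was 779 and 1161 on the wild-type naive arrays, 5090 and 20169 on the knockout naive arrays and 441 to 869 on the activated arrays. Of 14 measured and 12 tested, 4 passed as higher in naive knockout cells, among them S100a9 (46.3 and 19.5 against 695 and 2485) and Ngp (85.1 and 197 against 1500 and 6013), and the list's median was 1.51. Much of the sum came from S100a8, at 1354 and 6941 on the knockout naive arrays, with Ngp and S100a9. The ratio of replicate 2 to replicate 1 was 3.38 to 5.62 for 6 picked genes. These were Ngp, S100a8, S100a9, Lcn2, Camp and Ltf. Others moved less between these arrays, such as Mmp8 (88.4 and 99.3) and Mmp9 (112 and 203). Csf3r and Cxcr2 were below 0 in the naive comparison (log2 −0.57 and −0.06). Among granule enzyme genes of early granulocyte precursors, Prtn3 had no overlap, at 10.5 and 12.4 in wild-type against 55.3 and 143 in knockout naive cells, and was left untested by the filter (log2 1.96). Elane, at 4.8 and 155 against 115 and 103, Mpo, at 88.8 and 42.5 against 85.3 and 181, and Ctsg, at 112 and 44.5 against 99.2 and 95.7, overlapped.

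Marker lists named for other cell types, and for CD8 T cells, were summed in the same way. B and plasma cell markers summed to 36299 and 33118 in wild-type against 37715 and 54761 in knockout naive cells. Of 15 measured, 12 were above 0, with a median of 0.57, and 1 of 14 tested passed, the immunoglobulin heavy chain gene Igha (log2 5.70). Igha read 330 and 149 in wild-type against 9201 and 16831 in knockout naive cells. Much of the summed intensity was the heavy chain gene Ighm, which was lower in the knockout, at 25469 and 23957 against 18632 and 18897 (log2 −0.40, adjusted p = 0.225). Natural killer cell markers summed to 17663 and 19373 against 21913 and 24007, most of it the granule gene Nkg7 (14912 and 15139 against 15522 and 14780, log2 0.01). All 8 measured were above 0, with a median of 0.68, and 1 of 6 tested passed, the receptor gene Klra8 (log2 2.60), with 4 at an unadjusted p under 0.05. Macrophage and dendritic cell markers summed to 2116 and 2870 against 3968 and 6410, 8 of 10 measured were above 0, with a median of 0.76, and 0 of 7 tested passed (limma, 5 at an unadjusted p under 0.05). CD8 T cell markers summed to 128815 and 119546 against 110019 and 100329, and 8 of 10 were below 0, with a median of −0.19. Of CD4 and regulatory T cell markers 0 of 4 tested passed, and of erythroid markers 0 of 6 (limma, 2 of each at an unadjusted p under 0.05). Which cells carried these transcripts, and the part of such cells in the mitotic gene differences, was not tested.

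Further genes of the cycle were read beside them in naive cells. Of 102 tested genes of mitosis outside the 59, 3 were higher and 0 lower, with a median of 0.09: Stmn1, the microtubule destabiliser stathmin (1979 and 2550 against 4789 and 5437, log2 1.18, adjusted p = 0.00831), Nek2, a centrosome kinase (32.3 and 20.7 against 97.3 and 92.8, log2 1.40, adjusted p = 0.026), and Kpna2, a nuclear import receptor (log2 0.94, adjusted p = 0.0321). Of 54 DNA replication genes, 1 was higher and 0 lower, with a median of 0.03. That gene was Rrm2, the small subunit of ribonucleotide reductase (382 and 356 against 723 and 795, log2 1.01, adjusted p = 0.0132). The difference between these lists was not tested.

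In activated cells, 0 of 57 mitotic genes passed between genotypes in limma's fit, where 0.125% of all named genes were called higher and 0.164% lower, and 1 had an unadjusted p under 0.05. Small differences lay mostly below 0: 46 of 58 genes were lower in the knockout, with a median of −0.18, against −0.01 over all named genes. Both knockout arrays lay under both wild-type arrays for 33 genes and over them for 8, where 25.7% and 25.2% of all genes tested did so. The further genes of the cycle read above also lay mostly below 0. Of 54 DNA replication genes, 39 were lower and 15 higher in the knockout, with a median of −0.19. Their arrays did not overlap for 34 lower and 4 higher genes. Of 103 measured genes of mitosis outside the list, 78 were lower and 25 higher, with a median of −0.15. Whether the shift differed between these lists was not tested. Cyclin and Cdk1 genes lay below 0 in 7 of 7, at −0.41 to −0.08, and condensin genes in 2 of 5. Ndc80, the subunit that names the microtubule-binding complex, had the lowest value. It read 1547 and 1437 in wild-type against 682 and 771 in knockout activated cells (log2 −1.02, adjusted p = 0.25). Birc5 read 2666 and 2837 against 1781 and 1517, with no overlap (log2 −0.74, adjusted p = 0.607). Mki67, the gene with the smallest naive p, read 13710 and 14188 against 10582 and 10998 (log2 −0.37, adjusted p = 0.578). Fitted on the 4 activated arrays alone, 2 mitotic genes passed as lower, Ndc80 and Birc5 (limma, adjusted p = 0.00737 and 0.0158). The shares of all named genes above belong to the fit on 8 arrays. The share called in the smaller fit is not given here, so this count is not read as a result about these genes.

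After activation nearly the whole set was higher in both genotypes. In wild-type cells 53 of 57 tested genes rose and 0 fell, where 21.3% of all named genes rose and 24.1% fell. In knockout cells 53 rose and 1 fell, where 21.9% rose and 26.1% fell. Of the 57, 9 reached the array median on fewer than 2 of the 4 naive arrays and passed the filter on low values only through activated arrays. The filter thus favoured a rise in these 9. Among the 48 that passed it on naive arrays, 44 rose in each genotype. The median rise over the 58 was 4.47 in wild-type and 3.38 in knockout cells, against −0.12 over all named genes in each. These counts rest on naive and activated arrays that also differ in the ways given above, and with the Actb 3′ to 5′ ratio as a covariate 26 genes passed in wild-type and 0 in knockout cells.

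Kinetochore and checkpoint genes rose in 12 of 12 in both genotypes. Bub1 had the highest rise of the 58 genes in wild-type cells, from 44.4 and 3.68 to 2747 and 2701 (log2 6.31, adjusted p = 1.02e-06), and in knockout cells it went from 71.3 and 104 to 2835 and 2717 (log2 4.77). Bub1b and Nuf2 followed in wild-type cells with 5.53 and 5.38. The wild-type naive values of these 3 genes lay under the array medians of 73.4 and 86, so the size and order of their rises depend on the dim end of the scale and on the 16 added before the log. In knockout cells Ttk, the checkpoint kinase Mps1, had the highest value of the 12, 4.81, also from naive values under the array medians. Bub3 rose least, by 0.99 in wild-type and 0.80 in knockout cells (adjusted p = 0.000408 and 0.0016), followed by Cenpa, the centromeric histone, with 2.14 and 1.78. Bub3 also works outside mitosis, and its naive mean was 50.9% of its activated mean in wild-type cells.

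Spindle and cytokinesis genes rose in 16 of 16 tested in both genotypes, with medians over all 17 of 4.79 and 3.63. Nusap1, Aspm and the spindle factor Hmmr had the highest values in wild-type cells, 5.79, 5.63 and 5.59, with both naive values of Aspm under the array medians. In knockout cells the highest rises were those of Hmmr (4.77), Ect2, the exchange factor that triggers cleavage (4.73), and Anln, the anillin of the contractile ring (4.35). Kif23 and Racgap1, the partners of the centralspindlin complex, rose least, by 0.79 and 0.99 in wild-type against 1.13 and 0.46 in knockout cells. Kif23 passed in wild-type cells with an adjusted p of 0.035. Kif15 read 14.8 and 16.7 in wild-type against 65.3 and 79.3 in knockout activated cells, near or under the array medians, and was not tested.

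Mitotic kinases and passenger genes rose in 8 of 8 in both genotypes. Melk, a kinase of cycling cells, rose by 6.09 in wild-type cells, from 7.79 and 52.2 to 2754 and 2711, and Aurkb had the highest rise in knockout cells, 5.04. Incenp, the scaffold of the passenger complex, rose least, by 1.57 and 1.08. Among cohesion and anaphase genes 5 of 6 rose in both genotypes. Sgo1 rose by 5.95 in wild-type and 2.92 in knockout cells, and Ube2c by 5.76 and 3.34. For Melk, Sgo1 and Ube2c, too, both wild-type naive values lay under the array medians. Pttg1 was the exception, at 17563 and 11338 in naive and 10255 and 10638 in activated wild-type cells (log2 −0.43, adjusted p = 0.122). Its dimmer probe sets gave −1.45 and −1.29 in wild-type cells, and −1.80 and −1.29 in knockout cells, and both passed as lower in each genotype. The 3 genes of the chromosome surface rose in both genotypes, Mki67 by 5.94 and 3.64, Top2a by 5.39 and 3.85, and Cdca2 by 2.78 and 3.39.

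Cyclin and Cdk1 genes rose in 5 of 7. Cdk1 rose by 5.58 in wild-type cells, from 33.5 and 159 to 4379 and 4464, and by 3.76 in knockout cells, and Ccna2 by 5.36 and 3.96. Cdc25b was the one mitotic gene whose brightest probe set fell, in knockout cells. It read 592 and 788 in wild-type activated cells, overlapping the naive values of 724 and 783 (log2 −0.14, adjusted p = 0.657). In knockout cells it fell from 1618 and 2179 to 513 and 570 (log2 −1.77, adjusted p = 6.82e-05). Foxm1, the transcription factor that drives many late cell cycle genes, did not pass on its brightest probe set (0.57 and −0.28), which was dim and scattered. Another Foxm1 probe set gave 2.96 and 3.17. Among condensin genes 4 of 5 rose in both genotypes, led by Ncapg (4.68 and 5.40). The brightest probe set of Smc4 did not pass: its naive arrays spanned 13128 to 16101 and its activated arrays 14716 to 15775. Its 2 others gave 1.59 and 1.61 in wild-type against 1.43 and 1.51 in knockout cells. For 22 genes in wild-type and 19 in knockout cells, 23 in all, at least 1 probe set passed while the gene's probe sets spanned over 2 on the log2 scale. These were Anln, Aspm, Bub1, Bub1b, Cdc20, Cdca2, Cdca3, Cdca8, Cenpa, Cenpf, Cenpk, Foxm1, Hmmr, Incenp, Kif11, Kif2c, Nusap1, Plk4, Smc2, Spc25, Top2a, Tpx2 and Ttk. The lowest probe set of such a gene was at or under 0 for 6 genes in wild-type and 7 in knockout cells.

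**Figure D4:**
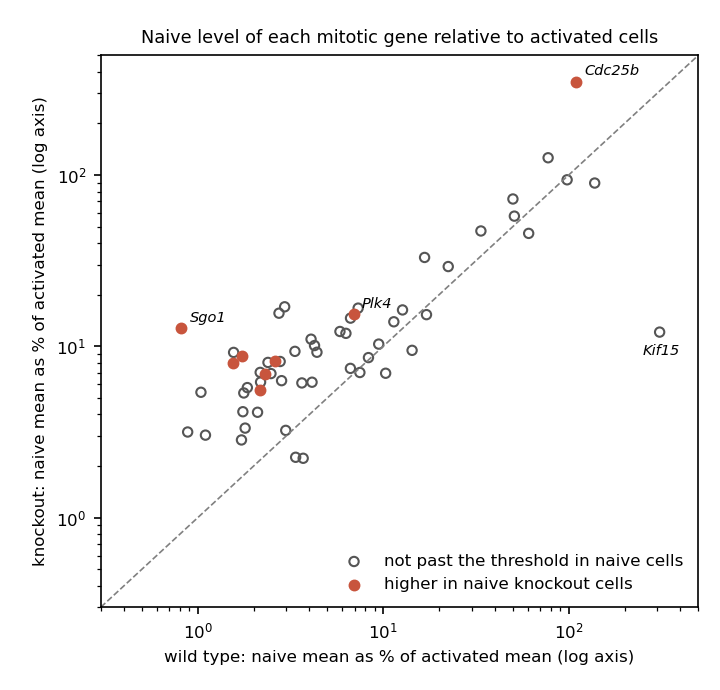
Mean naive intensity as a percent of mean activated intensity, for 58 mitotic genes, wild type on the horizontal and knockout on the vertical axis (both log axes). The dashed line marks equal percents and filled points are the 8 genes higher in naive knockout cells. For 48 of 58 genes the point lies above the line, with Sgo1 at 0.815% and 12.8%.

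How far the genotype effect differed between the states was then tested, as the effect in activated minus that in naive cells. Mki67 passed, at −2.30 (SE 0.29, adjusted p = 0.0224), where 0.0469% of all named genes were called lower and 0.0391% higher. Its rise on activation was 5.94 in wild-type and 3.64 in knockout cells. Sgo1 gave −3.02, Prc1 −1.50, Bub1b −2.09, Top2a −1.54 and Cdc25b −1.63, and these did not pass (adjusted p = 0.0559, 0.0835, 0.084, 0.0898 and 0.0983). The value lay below 0 for 48 of 58 genes, with a median of −0.98, against −0.03 over all named genes. By role the median was −1.54 for the chromosome surface, −1.50 for cohesion and anaphase, −1.35 for cyclins and Cdk1, −0.98 for kinases, −0.92 for kinetochores, −0.83 for the spindle and −0.01 for condensin. The Mki67 call was lost without knockout naive replicate 2 (adjusted p = 0.0621) and without any single activated array (0.151 to 0.275). The Mki67 value was −2.56 without wild-type naive replicate 2, −2.04 without wild-type naive replicate 1 and −2.54 without knockout naive replicate 1.

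Within each gene, the naive level was set against the activated level of the same genotype. The median over the 58 genes was 3.89% in wild-type and 9% in knockout cells, and the percent was higher in the knockout for 48 of 58. For 15 genes in wild-type and 3 in knockout cells both naive values were under the array medians, and their percents are not well measured. The naive level was under 5% of the activated level for 33 genes in wild-type and 9 in knockout cells. Among genes called higher in naive knockout cells, Mki67 went from 1.54% to 7.97%, Top2a from 2.31% to 6.87% and Prc1 from 2.62% to 8.22%. The percents are built from the same values as the differences above and are not separate evidence. Cdc25b stood apart at 109% and 350%, and for Aurka the percents were 7.48% and 7.03%.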

How the data were processed

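Gene expression was measured on 8 arrays, 2 for each of 4 groups named in the sample titles. The values deposited by the authors were linear intensities, 1 for each probe set on each array, made with MAS5 per the submitters' processing notes. In the deposited table each array's trimmed mean intensity was 500 (2% trimmed at each end), and 0 values were missing or at or under 0, so no further scaling was applied. The number of arrays limits the precision.

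The values were turned into log2(intensity + 16), a scale that understates changes of dim genes. Of 45101 probe sets, 64 were manufacturer's controls. The platform's annotation gave 34958 probe sets 1 symbol, 932 several and 9211 none, and 34754 symbols were updated through Entrez identifiers against GRCm38.p6. Probe sets that reached their array's median on 2 or more of the 8 arrays were tested (27389). limma 3.58.1 in R 4.3.3 fitted 1 mean per group over all 8 arrays (4 residual degrees of freedom, prior 6.7) with eBayes and an intensity trend, and p-values were adjusted by Benjamini-Hochberg over all probe sets tested. Tests were two-sided, and the script was tested on simulated data for the naive comparison. There 19 of 100 changes of 1 and 38 of 100 changes of 2 on the log2 scale passed, with 2 false calls among 59. A gene that did not pass may therefore still differ.

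The 59 genes, the role groups and the other lists were chosen with earlier results of these data known. Genes are summarised by their brightest probe set. Named genes were those that passed in a genotype contrast, those with the 3 largest and 3 smallest values per role after activation, and those whose probe sets disagree. Other members were added by role after their values were seen. Levels are not compared between genes, since probe sets differ in brightness. The arrays' replicate numbers were not taken as pairs. Alternatives covered the offset, scaling, filter, variance model, arrays fitted, Actb ratio, replicate block and choice of probe set.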

Additional observations from a re-analysis of the deposited data

Results flagged for a closer look

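The effect of the knockout on Mki67 differed between the states by a test of the difference itself: it was −2.30 on the log2 scale, activated minus naive (limma, adjusted p = 0.0224). The arrays read 174 and 255 against 714 and 1006 in naive cells, and 13710 and 14188 against 10582 and 10998 in activated cells. Groups of 2 arrays are too small to test a single array as an outlier.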

How the results depend on the processing

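Groups of 2 arrays, and naive values near the array median for many of these genes, limit what can be resolved, and several brightest probe sets also match related transcripts. The naive count of 8 genes became 0 without an intensity trend in eBayes and 0 with the 4 naive arrays alone, 5 with array weights, 1 with the Actb ratio as a covariate and 5 without _x_at and _s_at probe sets. Leaving out 1 array gave 1 to 14. The naive median of 0.76 became 0.49 with an offset of 64, 0.32 as the mean over a gene's probe sets and 0.53 to 0.89 with 1 array left out. Centring each array on its median shifted all probe sets by 0.1 in that comparison. The activated count of 0 became 2 with the 4 activated arrays alone and was 0 in every other alternative run. Shares of all genes called are not given for the alternatives here and below, so a change in count may not be particular to these genes. Causes were not tested.

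After activation, with the Actb ratio as a covariate, 26 genes passed in wild-type and 0 in knockout cells, where the median was 2.95. Leaving out 1 array gave 52 to 55 and 53 to 54 genes. The wild-type median of 4.47 became 4.73 with no offset, 3.88 with an offset of 64, 4.66 with arrays centred and 3.39 over a gene's probe sets, with 4.36 to 4.49 when 1 array was left out. The knockout median of 3.38 became 3.11 with an offset of 64 and 2.58 over a gene's probe sets, with 3.19 to 3.55 when 1 array was left out. The count of 1 for the difference between states, Mki67, became 2 with arrays centred, robust eBayes, array weights or no _x_at and _s_at probe sets, each time with Sgo1. It became 0 without a trend or with the Actb ratio, and 0 to 9 with 1 array left out. Its median of −0.98 became −0.69 with an offset of 64, −0.66 over a gene's probe sets and −1.16 to −0.72 with 1 array left out.

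Some single genes changed sign, of which Kif2c and Plk4 in naive cells and Bub3 and Kif23 in knockout activation had passed the test. In naive cells Kif2c became −0.30 and Plk4 −0.05 without _x_at and _s_at probe sets, and Plk4 −0.01 over its probe sets. Between activated genotypes the Actb ratio gave 0.04 for Plk4 and 0.01 for Prc1, and Prc1 was 0.05 without _x_at and _s_at probe sets. For wild-type activation, Cdc25b became 0.05 with arrays centred (−0.34 to 0.07 with 1 array left out), Foxm1 −0.19 with the Actb ratio (−0.39 to 1.52) and Smc4 −0.03 with quantile normalization (−0.11 to 0.18). For knockout activation, the Actb ratio gave −0.37 for Bub3 and −0.08 for Kif23, Foxm1 became 1.13 over its probe sets (−0.66 to 0.11 with 1 array left out) and Smc4 −0.23 with quantile normalization. Pttg1 became −0.13 with quantile normalization, −0.97 over its probe sets and −1.80 without _x_at and _s_at probe sets (−0.07 to 0.41 with 1 array left out).

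With the replicate number as a replicate block, 6 genes passed in naive cells, losing Kif2c and Plk4, 0 between activated genotypes, 53 in each activation comparison and 1 in the difference between states. Deviations of same-numbered arrays correlated at −0.167 between the naive genotypes and at −0.035 to 0.0684 between other groups, and a crossed pairing gave 10, 0, 53, 54 and 1 genes.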

Other observations

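After activation, further genes of the cycle outside the 59 rose as well. Nek2, the centrosome kinase, rose by 6.20 in wild-type and 4.96 in knockout cells on the log2(intensity + 16) scale. Trip13, an ATPase that acts on checkpoint proteins, rose by 5.88 and 5.92. Of the replication genes, Rrm2 rose by 6.04 and 5.11 and Cdc6, which helps load the replicative helicase, by 5.69 and 5.68. Some genes of mitosis fell in both genotypes: Ncaph2, a subunit of condensin II, by 0.91 and 1.67, Anapc13, a subunit of the anaphase-promoting complex, by 0.86 and 0.94, Mad2l1bp, which counteracts Mad2, by 0.64 and 0.62, and Stag2, a subunit of cohesin, by 0.59 and 0.51. All of these passed limma's test in both genotypes and were chosen after their values were seen. The naive and activated arrays also differ in the ways given in the report, and the part of those differences was not tested.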
